A study of Homo sapiens with 6 samples.

Results

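The cytosolic ribosomal protein genes were examined in CUT&Tag peak lists from the human breast cancer cell line MDA-MB-231, which lacks oestrogen, progesterone and HER2 receptors. The members were the protein-coding genes of chromosomes 1 to 22 whose symbol is RPL or RPS with a number and at most the letter A after it, together with RPLP0, RPLP1, RPLP2 and RPSA. This rule found 73 genes of 19122 protein-coding genes on those chromosomes, and it used symbols only and no measured value. Of the 73 genes, 43 encode proteins of the large ribosomal subunit and 30 encode proteins of the small subunit. Symbols that only begin alike were left out, namely 8 RPS6K kinase genes, 8 paralogs with an L after the number, and 3 readthrough or binding-protein genes (RPS10-NUDT3, RPL17-C18orf32 and RPS19BP1).

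CUT&Tag tethers a transposase to an antibody on chromatin, so that DNA beside the antigen is cut out and sequenced. NONO, a nuclear protein that binds RNA and DNA, was profiled in control (NC) cells, of genotype WT by the labels, and in NONO-KD cells. H3T11ph, phosphorylated threonine 11 of histone H3 that the kinase PKM2 can place, and H3K27ac, acetylated lysine 27 of the same histone and a mark of active promoters and enhancers, were each profiled in NC and in PKM2-KD cells. All cells were MDA-MB-231, and each of the 6 groups was 1 library, so no difference below has a replicate check and no p-value is given. The methods give NC as the name of the control siRNA and use a scrambled sequence for the hairpin lines, and no source used here states the knockdown method for these libraries directly. Peak lists hold no expression values, so the knockdowns could not be checked from them.

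The recovered depth was between 2.84 and 3.42 fragments per kb in the NONO and H3T11ph libraries, and 7.46 and 7.48 in the H3K27ac libraries. The lists held between 35720 and 556239 regions on chromosomes 1 to 22. The narrowest width of the list was that of 94.5% of regions in NONO NC and 79.1% in H3K27ac NC, and of 1.19% to 2.06% in the remaining 4. For NONO and H3K27ac, NC and knockdown were therefore not called alike, and differences made by the calling and by the knockdown cannot be told apart there. Both H3T11ph lists were called in 1 form. As a check of the cell label, all 7 mesenchymal and basal markers examined (VIM, CD44, CAV1, AXL, SPARC, FN1 and TGFBI) had H3K27ac in both lists, with median folds of 11.9 and 19.5. Of 8 luminal markers, 6 had it in each list with lower median folds of 5.46 and 6.08, and of 3 leukocyte markers 2 had it in NC and 0 in PKM2-KD. The luminal share of 75.0% was near that of all protein-coding genes, 78.7% in NC and 65.6% in PKM2-KD. Presence at luminal markers was thus no check of the label.

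The ribosome translates messenger RNA in every cell. Its small subunit reads the message, its large subunit joins amino acids, and each of its proteins is made from a gene of its own elsewhere in the genome. These genes are short, highly transcribed and expressed in near equal amounts in proliferating cells. Their transcripts usually begin with a C followed by a run of C and T, the 5′ terminal oligopyrimidine (TOP) tract, through which the mTOR pathway controls their translation. Many carry small nucleolar RNA genes in their introns, and most have many processed pseudogenes. The members lay on 20 chromosomes, with 12 of them on chromosome 19. Their median gene length was 4799 bp (range 1335 to 27723 bp), against 24490.5 bp over all protein-coding genes. A small nucleolar RNA gene lay inside 27 of the 73 (37.0%), against 2.64% of all protein-coding genes.

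Promoters of 5 members are shown first, out of 7 extracted because NONO or H3T11ph regions lay on them. Each runs 5′ to 3′ in the direction of transcription, from 250 bases before the annotated start to the first 30 bases of the gene, taken from RefSeq on GRCh38.p14. Capitals mark bases inside a NONO or H3T11ph region. RPL21 (chr13:27251308-27251587) carried the H3T11ph region with the highest fold of any member in PKM2-KD. RPS27 (chr1:153990512-153990791) carried the third highest fold of H3T11ph in NC. RPS3 (chr11:75399268-75399547) had H3T11ph in PKM2-KD, RPL41 (chr12:56116383-56116662) had it in NC, and RPS15 (chr19:1438146-1438425) had NONO in both lists and H3T11ph in NC. All 5 lie on the + strand.
RPL21: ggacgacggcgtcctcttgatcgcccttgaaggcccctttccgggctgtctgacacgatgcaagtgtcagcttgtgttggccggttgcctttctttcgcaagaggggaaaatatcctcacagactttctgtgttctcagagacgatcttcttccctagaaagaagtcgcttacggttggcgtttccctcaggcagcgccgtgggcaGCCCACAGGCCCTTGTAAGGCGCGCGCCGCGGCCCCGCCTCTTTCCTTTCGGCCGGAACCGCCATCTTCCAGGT
RPS27: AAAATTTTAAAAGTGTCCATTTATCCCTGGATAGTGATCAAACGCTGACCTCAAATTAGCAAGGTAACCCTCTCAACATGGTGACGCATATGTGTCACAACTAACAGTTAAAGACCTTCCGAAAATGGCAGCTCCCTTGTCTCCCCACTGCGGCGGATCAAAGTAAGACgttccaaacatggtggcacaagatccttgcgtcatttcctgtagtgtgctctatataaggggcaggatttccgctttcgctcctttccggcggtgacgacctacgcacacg
RPS3: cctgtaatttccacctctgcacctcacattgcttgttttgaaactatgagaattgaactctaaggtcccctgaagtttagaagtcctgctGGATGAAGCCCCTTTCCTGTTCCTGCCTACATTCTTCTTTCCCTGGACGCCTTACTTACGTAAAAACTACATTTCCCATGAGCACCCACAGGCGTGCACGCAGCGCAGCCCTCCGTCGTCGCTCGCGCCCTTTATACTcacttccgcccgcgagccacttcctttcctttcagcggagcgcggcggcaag
RPL41: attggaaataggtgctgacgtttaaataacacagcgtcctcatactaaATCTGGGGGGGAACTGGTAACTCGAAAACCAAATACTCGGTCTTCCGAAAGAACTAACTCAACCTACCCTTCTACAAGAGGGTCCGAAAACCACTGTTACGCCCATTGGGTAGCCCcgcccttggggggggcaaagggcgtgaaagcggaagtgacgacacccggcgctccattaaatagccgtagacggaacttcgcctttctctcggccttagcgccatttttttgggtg
RPS15: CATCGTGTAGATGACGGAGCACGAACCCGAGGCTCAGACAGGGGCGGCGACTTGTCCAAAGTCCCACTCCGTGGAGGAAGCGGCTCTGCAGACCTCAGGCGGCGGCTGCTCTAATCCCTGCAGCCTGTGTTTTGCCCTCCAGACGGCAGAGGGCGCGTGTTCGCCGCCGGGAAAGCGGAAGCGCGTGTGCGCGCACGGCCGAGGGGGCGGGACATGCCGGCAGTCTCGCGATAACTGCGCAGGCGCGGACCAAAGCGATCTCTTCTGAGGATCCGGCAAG

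In RPL21 the H3T11ph region of PKM2-KD ran from 44 bases before the start across it, so its capitals reach into the gene. In RPS27, RPS3 and RPL41 the capitals end 82, 23 and 87 bases before the start, and the start itself was free of H3T11ph. The whole shown stretch of RPS15 was covered by NONO or H3T11ph regions. The 30 bases around each start are given next, 15 before it and 15 from it on, with the unbroken run of C and T over the first transcribed base in capitals.
RPL21: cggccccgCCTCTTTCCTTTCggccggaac
RPS27: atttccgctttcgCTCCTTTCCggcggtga
RPS3: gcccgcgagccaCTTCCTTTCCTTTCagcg
RPL41: cggaacttcgCCTTTCTCTCggccttagcg
RPS15: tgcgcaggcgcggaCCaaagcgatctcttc

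The run was 13 bases long in RPL21, 9 in RPS27, 14 in RPS3 and 10 in RPL41. In RPS15 it was 2 bases long at the annotated start, and a longer pyrimidine stretch lay further on. A run of at least 5 such bases over the start was present in 4 of the 7 named members whose promoters were extracted, the 5 shown among them, and in 9.60% of 35116 RefSeq promoters of the same length. RPL10A and RPL13, extracted and not shown, had runs of 0 and 4 bases. Letters known from promoters were searched on both strands. The Sp1 motif GGGCGG, found in 44.1% of all promoters, was present in RPS3, RPL41 and RPS15, and in RPL13, which is not shown. AAGATGG, the core bound by YY1 (5.19% of all promoters), was present in RPL21 on the minus strand, inside the H3T11ph region. TATAAA (11.2%) was present in RPS3, on the minus strand. The ETS motif CCGGAAG (9.94%) and the E-box CACGTG (6.94%) were in none of the 5. A match is a description of letters, and no site was tested. Promoter sequences were found for 58 of 73 members (79.5%), under the 80% needed, so no share of motifs over the members is given.

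A gene was counted as having a region where a region lay within 1 kb of either of its ends. H3K27ac lay at 70 of the 73 genes (95.9%) in NC and at 73 (100%) in PKM2-KD, where 78.7% and 65.6% of all protein-coding genes had a region. H3T11ph lay at 28 (38.4%) in NC and 33 (45.2%) in PKM2-KD, beside a background of 18.2% and 17.6%. NONO lay at 31 (42.5%) in NC and 12 (16.4%) in NONO-KD, beside 28.9% and 10.3%. The share of members was thus above the background in each list. The distance between them was widest, in percentage points, for H3K27ac and H3T11ph in PKM2-KD. Since nearly all members carried H3K27ac, the same shares were also taken over the 11148 genes with H3K27ac in both lists, a background chosen after the data were seen. Among the 70 members of this kind NONO lay at 29 (41.4%) in NC and 12 (17.1%) in NONO-KD, beside 34.2% and 11.8%. H3T11ph lay at 25 (35.7%) in NC and 30 (42.9%) in PKM2-KD, beside 24.1% in both. Against acetylated genes alone the gaps were smaller and kept their direction in these 4 lists.

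**Figure D1:**
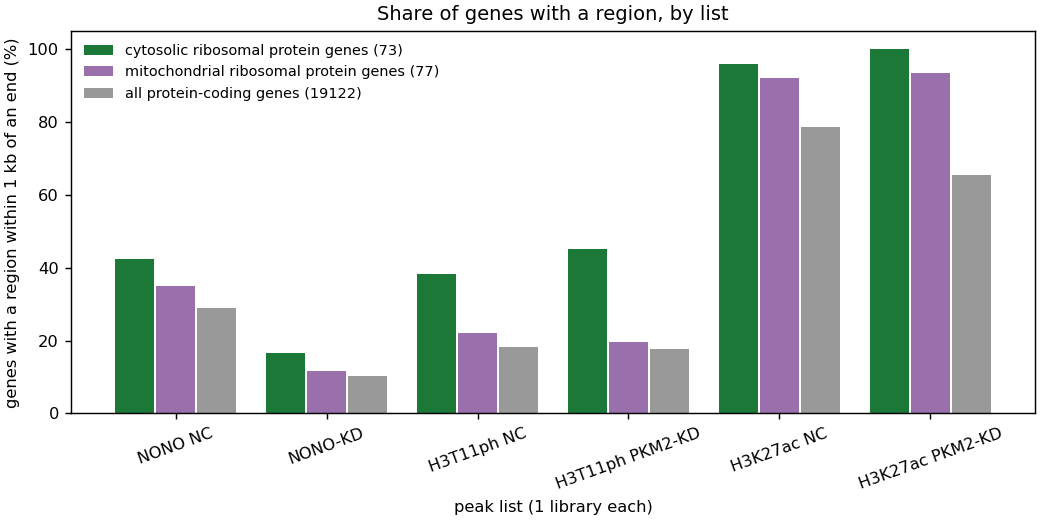
Share of genes with a region within 1 kb of either gene end (y axis, %) in each of the 6 lists (x axis), for the 73 cytosolic ribosomal protein genes, 77 mitochondrial ribosomal protein genes and all 19122 protein-coding genes. The cytosolic genes stand highest in every list, reaching 100% for H3K27ac in PKM2-KD, and the mitochondrial genes stand between them and all genes.

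Genes for the mitochondrial ribosome, a separate machine encoded by other nuclear genes, were set beside the members. Of 77 such genes, 71 (92.2%) had H3K27ac in NC and 72 (93.5%) in PKM2-KD. H3T11ph lay at 17 (22.1%) and 15 (19.5%), and NONO at 27 (35.1%) in NC and 9 (11.7%) in NONO-KD. Acetylation was thus nearly as frequent as at the cytosolic genes, while the H3T11ph shares lay nearer to those of all genes. The 14 genes of translation factors and other TOP transcripts had H3T11ph at 7 (50.0%) in NC and 9 (64.3%) in PKM2-KD. NONO lay at 7 of them (50.0%) in NC and 4 (28.6%) in NONO-KD. These shares were above those of the members. The 19 genes of ribosome biogenesis had H3T11ph at 6 (31.6%) and 4 (21.1%), and NONO at 9 (47.4%) and 2 (10.5%). Raised shares of H3T11ph and NONO were thus not particular to the members.

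H3K27ac at the members was also broader and of higher fold than over all genes with a region. The median of the widest region per gene was 639.5 bp in NC and 1103 bp in PKM2-KD, against 231 bp and 548 bp over all genes with a region. A region of 1000 bp or more lay at 16 members (21.9%) in NC and 40 (54.8%) in PKM2-KD, beside 7.1% and 17.1% of all genes. Regions at least 2 times the narrowest width of their list lay at 63 members (86.3%) in NC and 72 (98.6%) in PKM2-KD, beside 40.2% and 50.6%. The fold of a region sets its summit against the local background of that library. The median of each gene's highest fold was 9.95 in NC and 12.8 in PKM2-KD, against 6.14 and 8.56 over all genes with a region. The translation factor and other TOP genes had median widest regions of 732 and 967 bp and median folds of 9.77 and 14.7. Ribosome biogenesis genes had 438 and 1032 bp, with folds of 8.11 and 12.5. The mitochondrial genes had 292 and 636.5 bp, with folds of 6.80 and 9.35. Breadth and fold were thus not particular to the members. RPL4, a protein lining the peptide exit tunnel, had the highest fold in NC (31.9) and 38.5 in PKM2-KD. RPL31, at the rim of that tunnel, followed with 27.6 and 32.2, and RPL21, of the large subunit, with 26.1 and 79.2. In PKM2-KD, RPL21 was highest, followed by RPS29, a small zinc-binding protein of the small subunit (55.8, and 25.4 in NC), and RPL37, a zinc-binding protein of the large subunit (55.2, and 19.8 in NC). The lowest fold in both lists was that of RPS27A, which encodes ubiquitin fused to a ribosomal protein (2.71 and 2.92).

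Strand was known for 58 members and 15100 genes. H3K27ac lay within 1 kb of the 5′ end at 55 of the 58 in NC (94.8%, against 67.6% of all) and at all 58 in PKM2-KD (against 60.3%). Regions covered the start itself at 35 members (60.3%) in NC and 50 (86.2%) in PKM2-KD, against 26.6% and 34.0%. The 3′ end had a region at 36 members (62.1%) in NC and 32 (55.2%) in PKM2-KD, against 41.6% and 22.8%. H3T11ph lay at the 5′ end of 16 members (27.6%) in NC and 19 (32.8%) in PKM2-KD, against 15.0% and 15.1%. Its regions covered the start of 3 members (5.17%) in each list, against 3.08% and 3.07% of all genes, with median summits 64 bp and 79 bp before it. NONO in NC lay at the 5′ end of 13 members (22.4%, against 20.5%) and at the 3′ end of 12 (20.7%, against 12.4%). At the 5′ end the NONO share of members thus stood close to that of all genes.

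**Figure D2:**
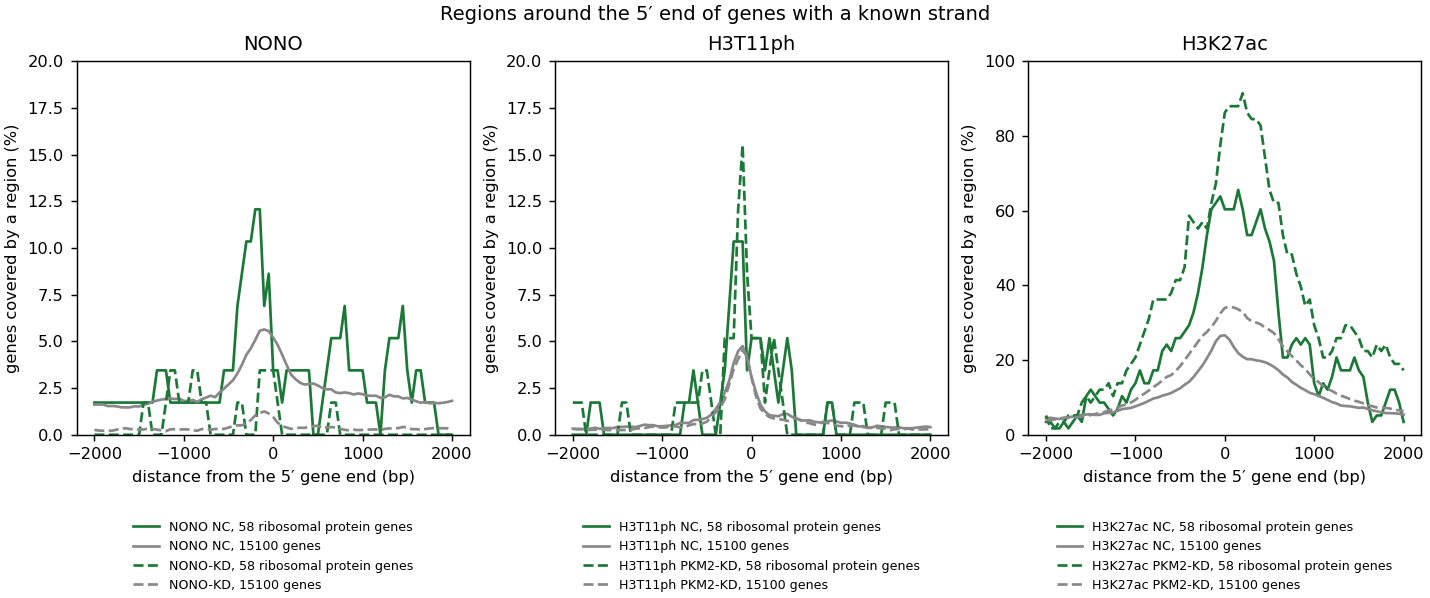
Share of genes covered by a region (y axis, %) by distance from the 5′ gene end (x axis, bp, negative before the start) for NONO, H3T11ph and H3K27ac, with solid lines for NC, dashed lines for knockdown, green for 58 ribosomal protein genes and grey for 15100 genes. H3K27ac spreads on both sides of the start, whereas H3T11ph forms a narrow crest just before it. The y axis of H3K27ac ends at 100% and the others at 20%.

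To set NC beside PKM2-KD on a scale of fragments, the height of each summit was recovered from the deposited fold and p-value, and the highest per gene was compared, which need not be the same region in both lists. For H3K27ac, 69 members had a height in both lists. The median was 36 fragments in NC and 46 in PKM2-KD, with a median ratio of 1.22 (10th to 90th percentile 0.651 to 2.16), against 1.11 over 11024 genes. It was higher in PKM2-KD at 46 of 69 members (66.7%), beside 56.3% of all genes. The 95% Poisson intervals of both heights, which cover counting error only, did not overlap at 15 members. The height was above that in NC at 12 members (17.4%), beside a background of 11.4%, and below it at 3 (4.35%), beside 3.11%.

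RPL21 had 70 fragments in NC (54.6 to 88.4) and 145 in PKM2-KD (122 to 171). RPLP2, an acidic protein of the stalk that calls elongation factors to the ribosome, had 34 (23.5 to 47.5) and 101 (82.3 to 123). RPL36, of the large subunit, had 27 (17.8 to 39.3) and 78 (61.7 to 97.3). The intervals of these 3 lay wholly higher in PKM2-KD, as did those of RPL37A, RPL32, RPS3A, RPS18, RPL7, RPS13, RPL19, RPS28 and RPS9. Some were barely apart, as at RPS3A with 23 fragments in NC (14.58 to 34.51) and 47 in PKM2-KD (34.53 to 62.50). The other direction was that of RPS19, whose mutation causes Diamond-Blackfan anaemia, with 94 fragments in NC (76.0 to 115) and 48 in PKM2-KD (35.4 to 63.6). RPS10, another gene of that anaemia, had 61 (46.7 to 78.4) and 33 (22.7 to 46.3), and RPS27A had 76 (59.9 to 95.1) and 41 (29.4 to 55.6).

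H3K27ac was present in the PKM2-KD list alone at 3 members (4.11%), RPL13 and RPL18 among them, beside 7.25% of all genes. None of the 73 had it in NC alone, beside 20.4%, and 70 (95.9%) had it in both, beside 58.3%. RPL13 had a region 1454 bp wide with a fold of 6.56, while its nearest NC region lay 2919 bp from a gene end. RPL18 had 4 regions with a highest fold of 6.73, its nearest NC region being 1177 bp away. RPL13 and RPL18 also carried H3T11ph in both lists.

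**Figure D3:**
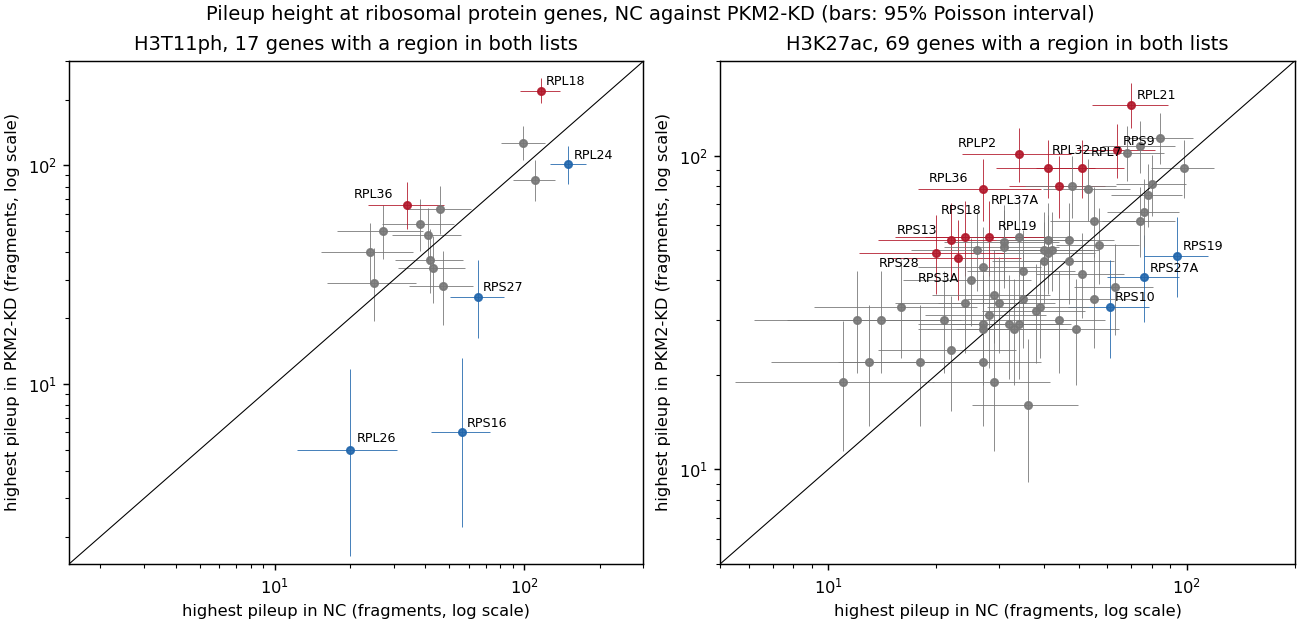
Highest pileup per gene in NC (x axis, fragments, log scale) and PKM2-KD (y axis, fragments, log scale) for H3T11ph (17 genes) and H3K27ac (69 genes), with bars for 95% Poisson intervals and the line of equality. Red and blue points are genes whose intervals lie wholly higher or lower in PKM2-KD. For H3K27ac 12 genes are red and 3 blue, and for H3T11ph 2 are red and 4 blue.

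H3T11ph was present at 17 members in both lists (23.3%), beside 6.14% of all genes. It was present at 11 members in NC only (15.1%), beside 12.0%, and at 16 in PKM2-KD only (21.9%), beside 11.5%. The median of the highest fold was 22.1 in NC and 23.7 in PKM2-KD, against 14.8 and 17.3 over all genes with a region. With the 5′ end alone the medians at members were 19.6 and 11.9, which turns their order. In fragments, with both ends, the median highest height at members was 39.5 in NC against 40 over all genes with a region. In PKM2-KD it was 50 against 45, so the members did not stand higher in fragments in NC. The 17 included RPS27, RPL29, RPL24, RPL35A, RPL10A, RPL7, RPL27A, RPLP0, RPL4, RPS2, RPL13, RPL26, RPL23A, RPL36, RPS16 and RPL18. Of 32 NC regions at members, 9 (28.1%) were overlapped by a PKM2-KD region, against 17.2% of such regions at all genes. In the other direction, 9 of 45 PKM2-KD regions (20%) were overlapped by an NC region, against 17.995%, which is near its background. Many members thus had H3T11ph in both lists without having the same region.

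RPL24, a protein of the bridge between the subunits, had the highest fold of H3T11ph in NC (79.0) and the third highest in PKM2-KD (54.3). Its NC region at chr3:101686779-101687024 and its PKM2-KD region at chr3:101686888-101687024 ended at the same base, with summits 193 bp and 214 bp before the start. Their heights were 150 fragments (127 to 176) and 101 (82.3 to 123). RPL18 had 116 fragments in NC (95.9 to 139) and 220 in PKM2-KD (192 to 251), the greatest height of a member in that list. Its fold went the other way, 22.6 in NC and 11.9 in PKM2-KD, as the local background was 4.17 in NC and 17.6 in PKM2-KD. That region lay also within 1 kb of an end of SPHK2, the neighbouring gene. RPS16, whose protein touches the transfer RNA in the P site, had 56 fragments (42.3 to 72.7) in NC and 6 (2.20 to 13.1) in PKM2-KD. RPL26, which binds MDM2 and p53 messenger RNA, had 20 (12.2 to 30.9) and 5 (1.62 to 11.7), and RPS27, a zinc finger protein of the small subunit, had 65 (50.2 to 82.8) and 25 (16.2 to 36.9). RPL36 had 34 (23.5 to 47.5) and 66 (51.0 to 84.0). In all, intervals lay wholly lower in PKM2-KD at 4 of the 17, RPS27, RPL24, RPL26 and RPS16 (23.5%), beside 23.0% of all genes with both, and wholly higher at 2, RPL36 and RPL18 (11.8%), beside 26.7%. The lower share was near its background. At RPL24, RPS16 and RPL18 an NC and a PKM2-KD region overlapped. At RPS27, RPL26 and RPL36 none did, so their heights compare different places and not 1 region in both lists.

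Among members with H3T11ph in NC only, RPL6 of the large subunit had a fold of 44.5 (60 fragments), and its nearest PKM2-KD region lay 25034 bp away. RPS15A, of the small subunit, followed with 38.6 (52 fragments) and a nearest region 11236 bp away. RPS15, which lies in the head of the small subunit, had 29.2, in a region at its 3′ end. Among those with H3T11ph in PKM2-KD only, RPL21 had 58.0 (75 fragments), with the nearest NC region 4692 bp away. RPL37 had 57.2 (74 fragments), with the nearest NC region 130446 bp away. The strongest members of both kinds were of like fold, so presence in 1 list only was not limited to weak regions. Counting only regions at least 2 times the narrowest width turned the order of the lists, with H3T11ph at 9 members (12.3%) in NC and 7 (9.59%) in PKM2-KD, beside 3.67% and 3.65% of all genes. That narrowest width was 111 bp in NC and 91 bp in PKM2-KD, so the filter asked for wider regions in NC. The lists hold only regions past the authors' threshold, and the signal of the other library at these places is not known.

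**Figure D4:**
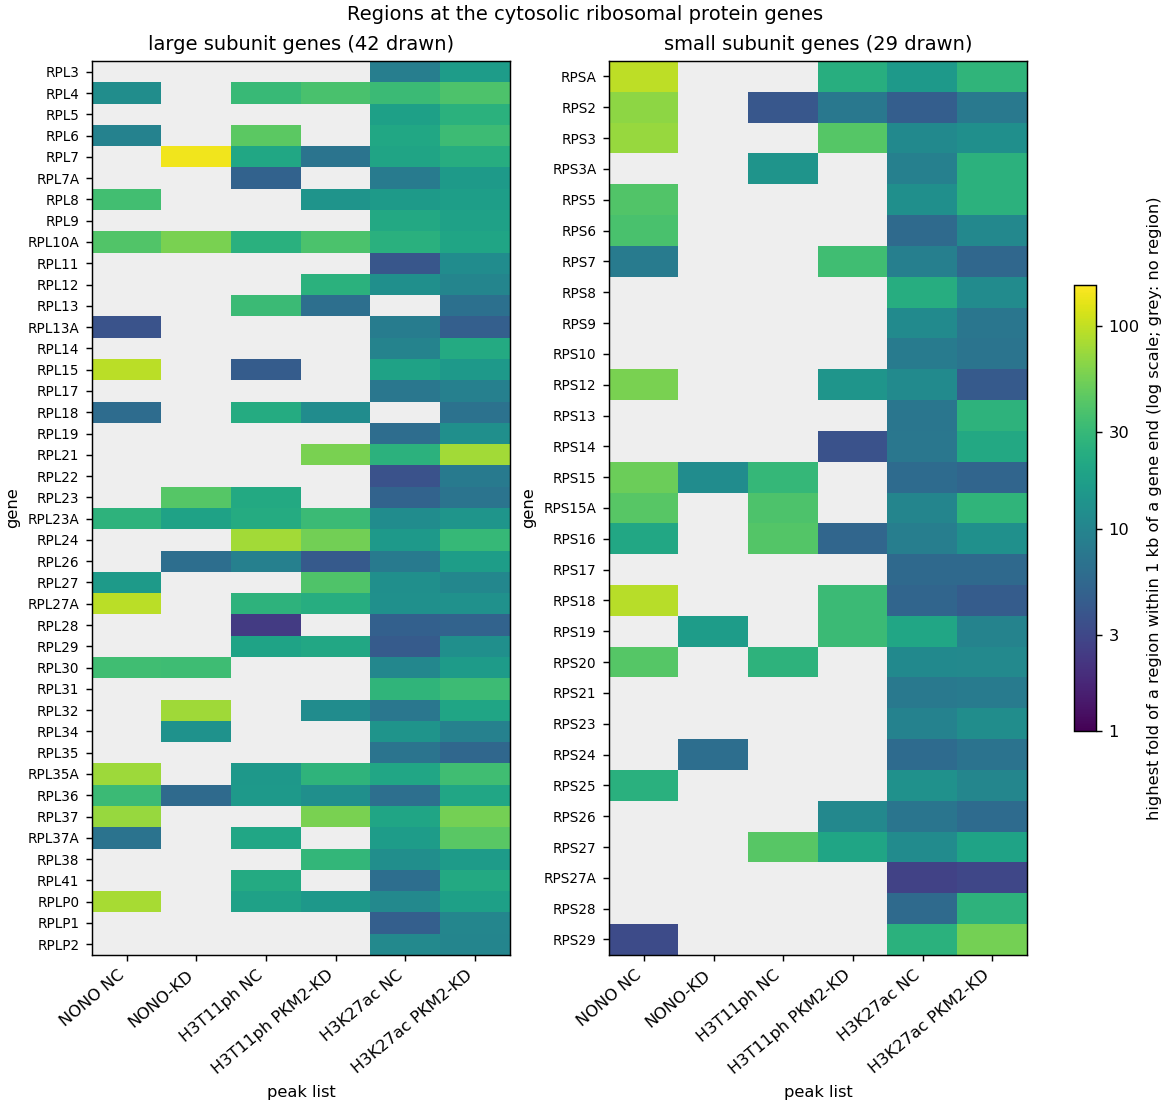
Highest fold of a region within 1 kb of a gene end for 71 of the 73 genes (rows) in each of the 6 lists (columns), on a log colour scale, with grey where the list has no region. The 2 H3K27ac columns are filled at 69 and 71 of these genes, whereas the NONO and H3T11ph columns are filled in different rows between NC and knockdown.

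NONO lay at 26 members in NC only (35.6%), beside 24.6% of all genes, at 7 in NONO-KD only (9.59%), beside 6.0%, and at 5 in both (6.85%), beside 4.28%. With the longer NC list cut to the 43292 regions of the NONO-KD list, NONO lay at 20 members in NC and at 15 in NC only. The share over all genes was not computed under this cut, so whether the members stay above it is not known. Of 44 NC regions at members, 42 had the narrowest width of 269 bp, and 15 lay also within 1 kb of an end of another gene. The median of the highest fold at members was 37.5 in NC against 23.2 over all genes with a region, and 17.5 in NONO-KD against 26.8. In fold the members thus stood above the median of all genes in NC and below it in NONO-KD, where 12 members had a region. In fragments the members stood above it in both lists, with median highest heights of 108 against 78 in NC and 68.5 against 52 in NONO-KD. Regions at least 2 times the narrowest width lay at 2 members (2.74%) in NC and 4 (5.48%) in NONO-KD, beside 1.24% and 0.889% of all genes, which turns the order of NC and NONO-KD. The narrowest width was 269 bp in NC and 98 bp in NONO-KD, so the filter asked for wider regions in NC. That order thus cannot be read as a difference between the 2 lists.

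RPSA, a small-subunit protein also known as the laminin receptor, had the highest fold in NC (96.4, 182 fragments). Its region at chr3:39406896-39407164 lay inside the gene, with its summit 239 bp after the start. The H3T11ph region of RPSA in PKM2-KD, chr3:39406896-39407032, began at the same base. RPL15 had 94.8 (179 fragments) and RPL27A, at its 3′ end, 94.5 (203 fragments). The nearest NONO-KD regions lay 4663, 94982 and 43090 bp from RPSA, RPL15 and RPL27A. In NONO-KD only, RPL7 had a fold of 142 (248 fragments), RPL32 78.2 (99 fragments) and RPL23 41.9 (86 fragments). The nearest NC regions lay 51047 bp from RPL7, 8170 bp from RPL32 and 1648 bp from RPL23. RPL7 thus had the highest fold of any member within the NONO-KD list, and folds are not ranked between lists. In fragments its height was below those of RPS15 (443) and RPS18 (258) in NC.

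The 5 members with NONO in both lists were RPL10A, RPL30, RPL23A, RPS15 and RPL36. Their heights were 108 and 77 fragments at RPL10A, 110 and 41 at RPL30, 65 and 39 at RPL23A, 443 and 135 at RPS15, and 146 and 7 at RPL36, in NC and NONO-KD. All 5 stood lower in NONO-KD, where 29.8% of 819 genes with both stood higher. The intervals lay apart at RPL30, RPS15 and RPL36 (60.0%), beside 49.1% of all genes, and depth was 3.34 fragments per kb in NC and 2.84 in NONO-KD. RPS15 was the only member at which an NC and a NONO-KD region overlapped. Its NC region, chr19:1437600-1438371, was 772 bp wide with a fold of 51.4, and its NONO-KD region, chr19:1438206-1438415, was 210 bp wide with a fold of 11.8. The local backgrounds there were 7.64 and 10.6, high for these lists, whose commonest backgrounds were 0.899 and 0.278.

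All 3 targets lay at 15 members in NC (20.5%), beside 6.78% of all genes. They were RPL37A, RPL15, RPL35A, RPL10A, RPS20, RPL27A, RPL6, RPLP0, RPL4, RPS2, RPS15A, RPL23A, RPS15, RPL36 and RPS16. NONO and H3T11ph together lay at 17 (23.3%), beside 7.68%. Of the 44 NONO regions at members in NC, 9 (20.5%) were overlapped by an H3T11ph region and 25 (56.8%) by an H3K27ac region, against 9.10% and 33.6% of such regions at all genes. Of the 32 H3T11ph regions in NC, 20 (62.5%) were overlapped by H3K27ac, against 43.4%. In PKM2-KD this held for 37 of 45 (82.2%), against 56.9%. A region in all 6 lists was found at 3 members, RPL10A, RPL23A and RPL36 (4.11%), beside 0.774% of all genes. At the other end, 21 members (28.8%) had H3K27ac in both lists and neither NONO nor H3T11ph in any, beside 22.9%. H3K27ac in both lists was itself more frequent at members, 95.9% beside 58.3%. Among genes with it, 21 of 70 members and 4387 of all 11148 genes had neither NONO nor H3T11ph. Against acetylated genes alone, the members thus lacked both less often.

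RPL10A, the protein of the L1 stalk past which spent transfer RNA leaves, had NONO folds of 40.1 in NC and 57.3 in NONO-KD. Its H3T11ph folds were 25.2 and 37.6 and its H3K27ac folds 24.9 and 19.6, in NC and PKM2-KD. RPL23A, which sits at the tunnel exit, had NONO folds of 26.3 and 18.5, H3T11ph folds of 22.7 and 32.0, and H3K27ac folds of 11.8 and 14.2. At RPL36 the NONO folds were 32.0 and 5.83, the H3T11ph folds 15.6 and 12.4, and the H3K27ac folds 6.43 and 20.1. Folds rest on the background of each library and are given side by side, not as a change.

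By subunit, H3K27ac lay at 41 of 43 large-subunit genes in NC and at all 43 in PKM2-KD, and at 29 and 30 of 30 small-subunit genes. NONO in NC lay at 16 large-subunit genes (37.2%) and 15 small-subunit genes (50.0%), and in NONO-KD at 9 and 3. H3T11ph lay at 20 large-subunit genes (46.5%) and 8 small-subunit genes (26.7%) in NC, and at 21 and 12 in PKM2-KD. NONO and H3T11ph in NC thus had their higher share in different subunits, and this difference was not tested.

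The genes of the stalk differed from each other. RPLP0, its base, had NONO in NC (81.6), H3T11ph in both lists (18.2 and 14.9) and H3K27ac at 10.99 and 17.9. RPLP1 and RPLP2 had H3K27ac alone, at 4.69 and 10.2 for RPLP1 and 10.97 and 10.1 for RPLP2. The large-subunit proteins that restrain MDM2 and so stabilise p53 were also unlike each other. RPL5 and RPL11, which join the 5S ribosomal RNA, had H3K27ac alone, at 17.8 and 25.5 for RPL5 and 3.85 and 11.8 for RPL11. RPL23 had NONO in NONO-KD (41.9) and H3T11ph in NC (21.9), with H3K27ac at 5.02 and 6.98. RPL26 had NONO in NONO-KD (6.26) and H3T11ph in both lists (9.16 and 4.17).

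Of the small-subunit genes chosen for their roles, RPS6, the substrate of the S6 kinases, had NONO in NC (37.5) and H3K27ac at 5.78 and 10.6. RPS3, at the entry of the messenger RNA channel, had NONO in NC (73.7) at its 3′ end, H3T11ph in PKM2-KD (41.9) and H3K27ac at 11.2 and 12.5. RPS14, the gene linked to anaemia of the 5q deletion, had H3K27ac at 7.53 and 21.6 and a weak H3T11ph region in PKM2-KD (3.57, 4 fragments). RPS19 had NONO in NONO-KD (16.5), H3T11ph in PKM2-KD (31.5) and H3K27ac at 20.3 and 9.71. Among the remaining genes of this choice, RPL3, of the peptidyl transferase centre, had H3K27ac alone, at 8.68 and 16.4. RPL22 also had H3K27ac alone, at 3.60 and 8.13. RPL13A, which takes part in translational silencing too, had NONO in NC (3.69) and H3K27ac at 8.47 and 4.64. RPL41, the smallest ribosomal protein, had H3T11ph in NC (22.3) and H3K27ac at 6.23 and 21.6. Of the 18 genes chosen by role, all had H3K27ac in both lists, beside 78.7% of all genes in NC and 65.6% in PKM2-KD. NONO lay at 6 (33.3%) in NC and 4 (22.2%) in NONO-KD, beside 28.9% and 10.3%. H3T11ph lay at 5 (27.8%) in NC and 7 (38.9%) in PKM2-KD, beside 18.2% and 17.6%. The NONO share in NC was near its background.

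The 4 members on chromosome 8 were RPL7, RPL8, RPL30 and RPS20. RPL8, near the peptidyl transferase centre, had NONO in NC (34.1), H3T11ph in PKM2-KD (13.9) and H3K27ac at 16.0 and 17.1, with 98 and 91 fragments. RPL30 had NONO at 33.5 in NC and 32.9 in NONO-KD, no H3T11ph, and H3K27ac at 10.5 and 16.3. RPS20 had NONO in NC (41.6), H3T11ph in NC (26.6) and H3K27ac at 11.2 and 10.8. RPL7 had H3T11ph at 20.5 and 7.07 and H3K27ac at 19.2 and 23.8.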

How the data were processed

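CUT&Tag libraries of NONO, H3T11ph and H3K27ac in MDA-MB-231 were grouped by their titles into 6 groups of 1. The authors deposited 1 narrowPeak list per library. The submitters' processing notes name hg38, FastQC 0.11.9, cutadapt 1.18, SAMtools 1.3.1 and MACS2 2.1.1.20160309; the aligner and any control are not given in the sources used here. Each deposited score derives from −log10 q, the deposited fold is a ratio of summit to background within a library, and p-values and q-values were deposited on a −log10 scale. The smallest −log10 q was 1.30 to 1.32, near a q of 0.05. Only fold, −log10 p, −log10 q, width and summit were used, within a list.

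Gene ends came from a RefSeq table of GRCh38.p14, without exons; strand came from the RefSeq promoter table. A gene had a region where 1 lay within 1 kb of either end. Overlap was at least 1 bp. Whole pileup heights were matched to fold and −log10 p (tolerance 0.002), and 99.5% to 100% of 2000 rows per list were matched, after multiplying heights by 0.5209 in H3K27ac NC. Depth is the commonest background over the narrowest width, which assumes that width to be the fragment length. RPL4 has no height in H3K27ac NC. The scripts were tested on simulated data.

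Members and lists were chosen with earlier results of these data known. Genes named were 18 chosen by role, the 4 on chromosome 8, the 3 with the highest fold in each list and among those in 1 condition only, those with all 3 targets in NC, and the groups counted. Genes whose intervals lay apart, the sequences shown, RPL18 and RPS27A were chosen after their values were seen. Some members are not reported by name here. Alternatives were the window, the 5′ end alone, −log10 q, width, lists cut to equal length, and the readthrough symbols. Python 3.11.15, pandas 2.3.3, numpy 2.4.6, scipy 1.17.1 and matplotlib 3.10.9 were used.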

Additional observations from a re-analysis of the deposited data

How the results depend on the processing

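No paired analysis was possible because 1 library per group allows no fit. Of 117 values recomputed under alternatives, 87 stayed within 1.5 times the reported value and 30 did not. They are given here for members alone, without shares over all genes. With a 500 bp window, NONO lay at 7 members in NONO-KD, 4 in NONO-KD only and 3 in both, and H3K27ac in PKM2-KD only at 5. With a 2.5 kb window NONO lay in NONO-KD only at 4 and in both at 13. With the 5′ end alone (58 members) NONO lay at 13 in NC, 5 in NONO-KD, 11 in NC only, 3 in NONO-KD only and 2 in both, H3T11ph at 16 in NC, 19 in PKM2-KD and 6 in both, and the median fold of H3T11ph in PKM2-KD was 11.9. With lists of equal length, NONO lay at 20 in NC and 15 in NC only, and H3K27ac in PKM2-KD only at 8. At a −log10 q of at least 5 this last count was 9. With regions at least 2 times the narrowest width, NONO lay at 2 in NC, 4 in NONO-KD, 1 in NC only, 3 in NONO-KD only and 1 in both. H3T11ph then lay at 9 in NC, 7 in PKM2-KD, 4 in NC only, 2 in PKM2-KD only and 5 in both, and H3K27ac in PKM2-KD only at 9. Under this filter NONO and H3T11ph reversed the order of NC and knockdown, and the cause was not tested. Fewer regions enter by construction, and the width asked for was larger in NC. The narrowest width was 269 bp in NONO NC and 98 bp in NONO-KD, and 111 bp and 91 bp for H3T11ph. That order thus cannot be read as a difference between NC and knockdown. Keeping the readthrough and binding-protein symbols in (76 genes) moved none of 15 values. H3K27ac in NC only stayed at 0 members in every alternative run. Outside the width filter, where 72 of 73 had a region in PKM2-KD, all members counted had 1 there. The count could then be nothing but 0. Depth of about 3 fragments per kb for NONO and H3T11ph limits weak regions, and intervals cover counting error only.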

Other observations

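The 4 ribosomal protein genes of the X chromosome, RPS4X, RPL36A, RPL39 and RPL10, were outside the rule and all had H3K27ac in both lists. Their highest folds were 6.14, 9.41, 5.05 and 11.2 in NC, and 22.2, 17.3, 10.6 and 16.6 in PKM2-KD. NONO lay at RPS4X in NC (76.3). H3T11ph lay at RPL10 in NC (11.2), and at RPL36A (3.81) and RPL39 (25.9) in PKM2-KD.

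Every member had at least 1 pseudogene on chromosomes 1 to 22 whose symbol is its own with a P and a number, 1761 in all with a median of 14 per gene and 134 for RPL21. Regions lay within 1 kb of an end of 9.71% of these pseudogenes for NONO in NC and 4.26% in NONO-KD. The shares were 3.35% and 2.499% for H3T11ph, and 42.6% and 17.2% for H3K27ac, in NC and PKM2-KD. Over all 15727 pseudogenes they were 11.4%, 5.57%, 5.42%, 4.39%, 45.0% and 20.3% in the same order. The pseudogenes of the members were thus below all pseudogenes in each list. Reads that fit a gene and its pseudogenes equally well cannot be placed with certainty, and their part in these values was not tested.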
